A study of Mus musculus with 212 samples.

Results

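Embryoid bodies are aggregates of differentiating mouse embryonic stem cells, in which beating heart muscle appears within days. The 12 cells described here are the 6 whose names start with D8 and the 6 whose names start with D7 in the table of days 5 to 8, of 24 cells in that table and 200 cells in the series. D8 cells were set against D7 cells to show what moved in the last day of that course. Each cell was assayed by microfluidic quantitative PCR with 42 TaqMan assays for 33 genes, of which 9 genes have a pair of numbered assays. Expression is given as 25 minus the quantification cycle (Ct), in cycles above the detection limit, and an assay at Ct 25, the highest value in the table, is read as not detected and set to 0. Where PCR doubles the template at each cycle, 1 cycle is 1 log2 unit.

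The sample titles call the cells of this table E10.5 cells and their source mouse embryo, while the table and the cell names inside it read D5 to D8, so the labels contradict each other and the cells are called by their names in the table. Those names are taken here as days of embryoid body culture, which the labels do not spell out; the design text names stem cell and embryo sources for the series. The labels give the cell type as cardiac. The sources used here do not give the cell line, strain, culture or sorting marker. With no culture named, each day is 1 sample: no test was possible, no p-value was computed, and every SD is the spread between the 6 cells of a day. The negative control of the table gave signal on 0 assays and the positive control on all 42. None of the 12 cells recurred elsewhere in the series with the same values. D8 cells detected 20 to 31 assays each and D7 cells 17 to 32.

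Heart muscle cells arise from mesoderm that first carries receptors such as Kdr (the Flk-1 assay) and Pdgfra and transcription factors such as Hand1, and then turns on the factors Nkx2-5, Gata4, Mef2c and Tbx5 together with the sarcomere genes. In the mouse, the beta myosin heavy chain Myh7 is the ventricular form of the embryo, and the alpha chain Myh6 becomes the main form after birth. Actn2, alpha-actinin, anchors the thin filaments at the Z-disc.

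As measured, 12 of 42 assays (28.6%) were at least 1 cycle higher in D8 cells than in D7 cells and 6 (14.3%) were at least 1 cycle lower. All 12 higher assays belonged to sarcomere genes or cardiac factors. Of the 42 assays, 10 are on the cardiomyocyte list and 16 on the progenitor and transcription factor list. The cell D7-1 was at 0 for all 12 higher assays, and Myh7-1, Myl2 and Mef2C-2 were at 0 in other D7 cells too. Without D7-1, 4 assays (9.52%) were higher and 5 (11.9%) lower, and 1 of the 12 (Myh7-1) still passed 1 cycle. Of the 18 assays past 1 cycle, 5 stayed past it whichever of the 12 cells was left out: Myh7-1 was higher in D8 cells, and Hand1, Pdgfra, Flk-1 and Pou5f1 were lower. No assay separated the days completely, and 1 difference (Flk-1) exceeded the pooled SD between cells, both with and without D7-1. That pooled SD is small because no D8 cell detected Flk-1, which gave a D8 SD of 0. With a stricter detection limit of Ct 23 the Flk-1 and Pou5f1 differences were -0.91 and -0.90, under 1 cycle. Over detecting cells alone, Pdgfra differed by -0.40 and Pou5f1 by -0.71, also under 1 cycle. The second assay of Myh7, Myh7-2, differed by 0.70 without D7-1.

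**Figure D1:**
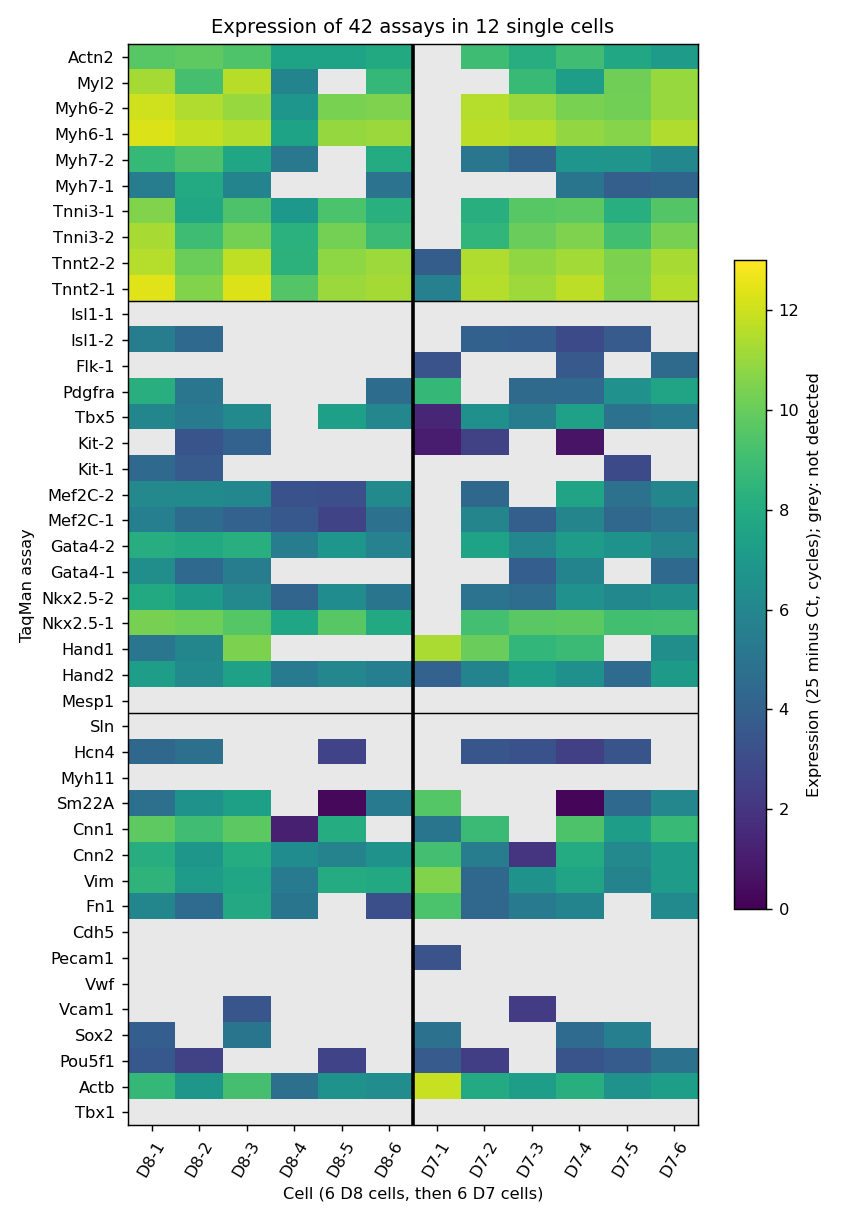
Expression of all 42 assays (rows: cardiomyocyte list at the top, progenitor and transcription factor list in the middle, other assays below) in the 6 D8 cells and the 6 D7 cells (columns), in cycles above the detection limit, with grey for not detected. D7-1 is grey for 8 of the 10 cardiomyocyte assays, and D8-4 and D8-5 hold fewer detected assays (20 and 21) than the other D8 cells.

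D7-1 was unlike the other 11 cells. It detected 17 assays, and 2 of the 10 cardiomyocyte assays, against 7 to 10 in the D8 cells and 8 to 10 in the other D7 cells. Those 2 were the troponin T assays, with Tnnt2-1 at 5.65 and Tnnt2-2 at 3.83 cycles. In 8 assays it had the highest value of all 12 cells: Hand1 at 11.33, Pdgfra at 8.67, the actin-binding smooth muscle protein Sm22A (Tagln) at 9.59, the non-muscle calponin Cnn2 at 9.13, vimentin (Vim) at 10.55, fibronectin (Fn1) at 9.32, Pecam1 at 3.34 and cytoskeletal actin (Actb) at 11.89. A further 10 assays were at 0 in D7-1 and detected in all 6 D8 cells, namely both assays each of Nkx2.5, Mef2C, Myh6 and Tnni3, Actn2, and Gata4-2.

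Over the 41 assays other than Actb, D7-1 correlated with the mean of the CPC reference cells at r = 0.88 and with that of the CM reference cells at -0.02. CPC and CM are the names of 2 of the 6 types of 5 reference cells each in the series. The other 11 cells correlated with the CM mean at 0.70 to 0.84 (D8) and 0.73 to 0.86 (D7), and with the CPC mean at -0.13 to 0.09 (D8) and -0.11 to 0.11 (D7). By the highest correlation 6 of 6 D8 cells and 5 of 6 D7 cells were closest to the CM type, and D7-1 was closest to CPC. Against days of its own table, D7-1 correlated at 0.88 with the mean of the D5 cells, 0.81 with D6, 0.14 with the other D7 cells and 0.10 with D8. These correlations are descriptions across assays and carry no p-value.

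**Figure D2:**
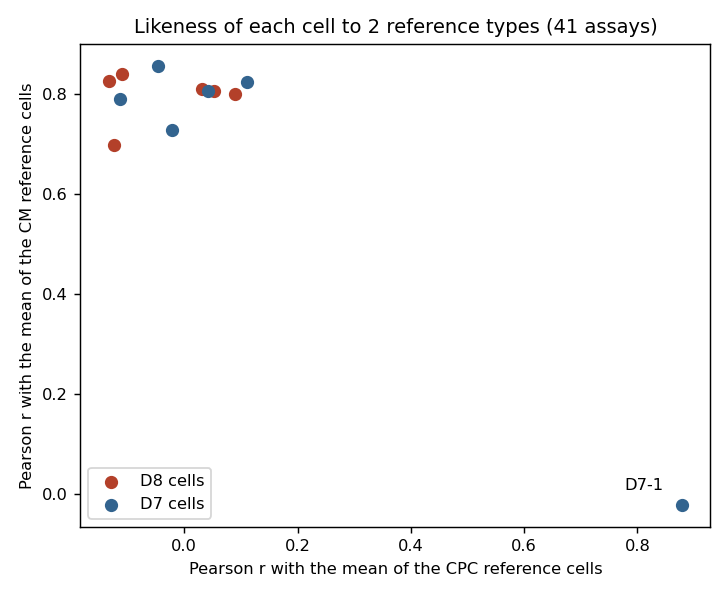
Pearson correlation of each of the 12 cells with the mean of the CPC reference cells (x axis) and of the CM reference cells (y axis) over 41 assays. D7-1 stands alone at 0.88 and -0.02, and the 6 D8 and 5 other D7 cells lie together, between 0.70 and 0.86 on the CM axis.

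Among cells that detected the assay, Myh7 was the sarcomere gene whose level differed most between the days. Myh7-2 read 8.71, 9.38, 7.69, 5.20, 0 and 8.01 cycles in D8 cells 1 to 6, against 0, 5.12, 4.14, 6.85, 6.79 and 6.08 in D7 cells 1 to 6. In 4 of 6 D8 cells it was above every D7 cell, more than for any other assay, while D8-5 had no signal. The means were 6.50 ± 3.49 in D8 and 4.83 ± 2.58 in D7 cells (SD, n = 6 each), a difference of 1.67 that became 0.70 without D7-1. Over the 5 detecting cells of each day they were 7.80 and 5.80, a difference of 2.0 cycles.

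The other Myh7 assay, Myh7-1, read 5.44, 7.96, 5.84, 0, 0 and 4.97 in D8 cells 1 to 6, against 0, 0, 0, 5.03, 3.92 and 4.20 in D7 cells 1 to 6. It was detected in 4 of 6 D8 cells (exact 95% interval 22.3 to 95.7%) and 3 of 6 D7 cells (11.8 to 88.2%); these intervals cover counting error only. Means were 4.04 ± 3.29 in D8 and 2.19 ± 2.43 in D7 cells (SD, n = 6 each), and the difference of 1.84 ran from 1.06 to 2.65 as single cells were left out. In the 7 cells that detected both assays, Myh7-1 read 2.31 ± 0.73 cycles below Myh7-2 (SD, n = 7). The 3 cells with Myh7-2 alone (D8-4, D7-2 and D7-3) had it at 5.20, 5.12 and 4.14, the lowest Myh7-2 values of the 10 detecting cells.

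The alpha chain assays overlapped between the days. Myh6-1 read 12.33, 11.83, 11.51, 7.53, 10.97 and 11.03 in D8 cells 1 to 6, against 0, 11.65, 11.53, 10.90, 10.62 and 11.46 in D7 cells 1 to 6. Myh6-2 read 12.05, 11.45, 10.99, 6.81, 10.40 and 10.48 in D8 cells, against 0, 11.54, 11.06, 10.37, 10.25 and 11.02 in D7 cells. Apart from D7-1 and D8-4, Myh6-1 lay between 10.62 and 12.33 in the cells of both days. The difference of 1.51 for Myh6-1 became -0.36 without D7-1, and that of 1.33 for Myh6-2 became -0.48.

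Within single cells that detected both assays, Myh7-2 stood closer to Myh6-1 on D8. Myh7-2 minus Myh6-1 was -3.61, -2.46, -3.82, -2.33 and -3.02 cycles in D8-1, D8-2, D8-3, D8-4 and D8-6, against -6.53, -7.39, -4.05, -3.83 and -5.38 in D7-2 to D7-6. The means of this difference were -3.05 ± 0.67 in D8 and -5.43 ± 1.54 in D7 cells (SD, n = 5 each). The ranges touched without overlapping, but this counts only cells that detected both assays. With Myh6-1 at 10.97 and Myh7-2 set to 0, D8-5 would lie below every D7 value given here. The separation therefore holds only when D8-5 is left out. The smallest gap, in D8-4, came with its low Myh6-1 of 7.53 and Myh7-2 at 5.20. With the less sensitive Myh7-1 the ranges overlapped, at -5.62 ± 1.27 in D8 cells (SD, n = 4) and -6.61 ± 0.70 in D7 cells (SD, n = 3). This pair of assays was chosen after the values were seen.

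**Figure D3:**
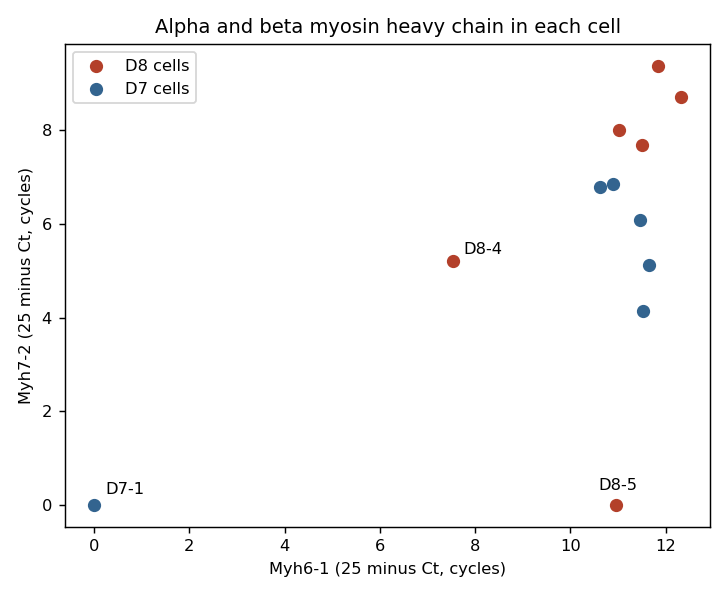
Myh7-2 (y axis) against Myh6-1 (x axis) in each cell, in cycles above the detection limit. At Myh6-1 values of 10.6 to 12.3, 4 D8 cells lie above all D7 cells on the Myh7-2 axis, and D8-5 lies at 0.

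Myh7 and Myh6 are neighbouring genes on chromosome 14 of the mouse and are both read from the minus strand. Their promoter windows are shown so that the pair of myosin genes compared within cells above can be seen side by side. Each has 300 bases, from 250 before to 50 after an annotated start in RefSeq (GRCm38.p6). Capitals mark matches, searched on both strands, to either form of the TATA box, which is spelled TATAAA in one form and is spelled TATATA in the other, and to the M-CAT element of muscle promoters, spelled CATTCC. The forms do not overlap one another in these windows.
Myh7 (chr14:54994500-54994799, minus strand): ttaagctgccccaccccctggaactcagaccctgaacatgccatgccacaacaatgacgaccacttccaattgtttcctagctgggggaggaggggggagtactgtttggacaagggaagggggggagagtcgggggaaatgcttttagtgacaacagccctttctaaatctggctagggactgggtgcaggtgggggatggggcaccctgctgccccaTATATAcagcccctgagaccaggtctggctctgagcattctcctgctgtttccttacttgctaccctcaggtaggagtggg
Myh6 (chr14:54966558-54966857, minus strand): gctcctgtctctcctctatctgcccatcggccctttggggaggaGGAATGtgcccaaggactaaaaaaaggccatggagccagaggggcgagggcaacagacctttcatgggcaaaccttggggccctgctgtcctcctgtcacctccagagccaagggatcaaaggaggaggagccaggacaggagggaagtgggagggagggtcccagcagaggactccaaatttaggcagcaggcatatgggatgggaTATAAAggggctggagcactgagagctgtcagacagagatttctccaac
The Myh7 window held TATATA with its first base at -31 from the annotated start and no CATTCC. The Myh6 window held TATAAA at 1 base after the annotated start, so not at the usual place of a TATA box before it, and the reverse complement of CATTCC at -206. Of all 32851 promoter windows in the table, 17.1% held either TATA form and 14.7% held CATTCC. Myh7 has 2 annotated windows and the downstream one is shown. A match describes letters only.

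Among the other sarcomere genes, Actn2 was detected in every cell but D7-1. It read 9.63, 9.79, 9.42, 7.53, 7.52 and 7.91 in D8 cells 1 to 6, against 0, 8.98, 8.10, 9.03, 7.80 and 7.15 in D7 cells 1 to 6. D8-1, D8-2 and D8-3 were above every D7 cell, and the other D8 cells lay inside the range of D7-2 to D7-6. Means were 8.63 ± 1.09 in D8 and 6.84 ± 3.43 in D7 cells (SD, n = 6 each). The difference of 1.79 was 0.42 without D7-1.

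Myl2, the ventricular regulatory light chain, read 11.24, 9.19, 11.59, 5.88, 0 and 8.65 in D8 cells 1 to 6, against 0, 0, 8.81, 7.30, 10.19 and 11 in D7 cells 1 to 6. It was undetected in D8-5, which also lacked Myh7, and in D7-1 and D7-2. The difference of 1.54 ran from 0.30 (without D7-1) to 3.09 as single cells were left out, and detecting cells averaged 9.31 on D8 and 9.33 on D7. Sln, the atrial regulator of the calcium pump, was detected in none of the 12 cells.

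Troponin I (Tnni3), an inhibitory subunit of the thin filament, was detected in every cell but D7-1. Tnni3-2 was at 11.30, 8.98, 10.29, 8.28, 10.28 and 8.85 in D8 cells 1 to 6, against 0, 8.57, 10.05, 10.49, 9.07 and 10.32 in D7 cells 1 to 6. Tnni3-1 was at 10.53, 7.81, 9.39, 6.93, 9.34 and 8.24 in D8 cells, against 0, 8.20, 9.61, 9.70, 8.17 and 9.52 in D7 cells. The differences of 1.58 and 1.17 became -0.04 and -0.34 without D7-1. The troponin T assays, detected in all 12 cells, differed by less than 1 cycle, with Tnnt2-1 at 11.18 ± 1.09 in D8 and 10.33 ± 2.33 in D7 cells (SD, n = 6 each). Their differences of 0.85 (Tnnt2-1) and 0.77 (Tnnt2-2) passed 1 cycle without D8-4, D7-2, D7-4 or D7-6, and were -0.09 and -0.43 without D7-1.

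The cardiomyocyte list of 10 assays held 8 past 1 cycle in favour of D8 and 0 against it, against 28.6% higher and 14.3% lower over all 42 assays. Its median difference was 1.52, against 0.29 over all assays. Leaving out D7-1 left 1 higher and a median of -0.06, and leaving out D8-1 left 5 higher. In cells that detected the assay, the 2 Myh7 assays were at least 1 cycle higher and the other 8 lay within 1 cycle. Across all assays with at least 3 detecting cells on each day, 3 of 28 (10.7%) were higher on D8 in this way, both Myh7 assays and Tbx5, and 2 (7.14%) were lower, Hand1 and Actb.

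**Figure D4:**
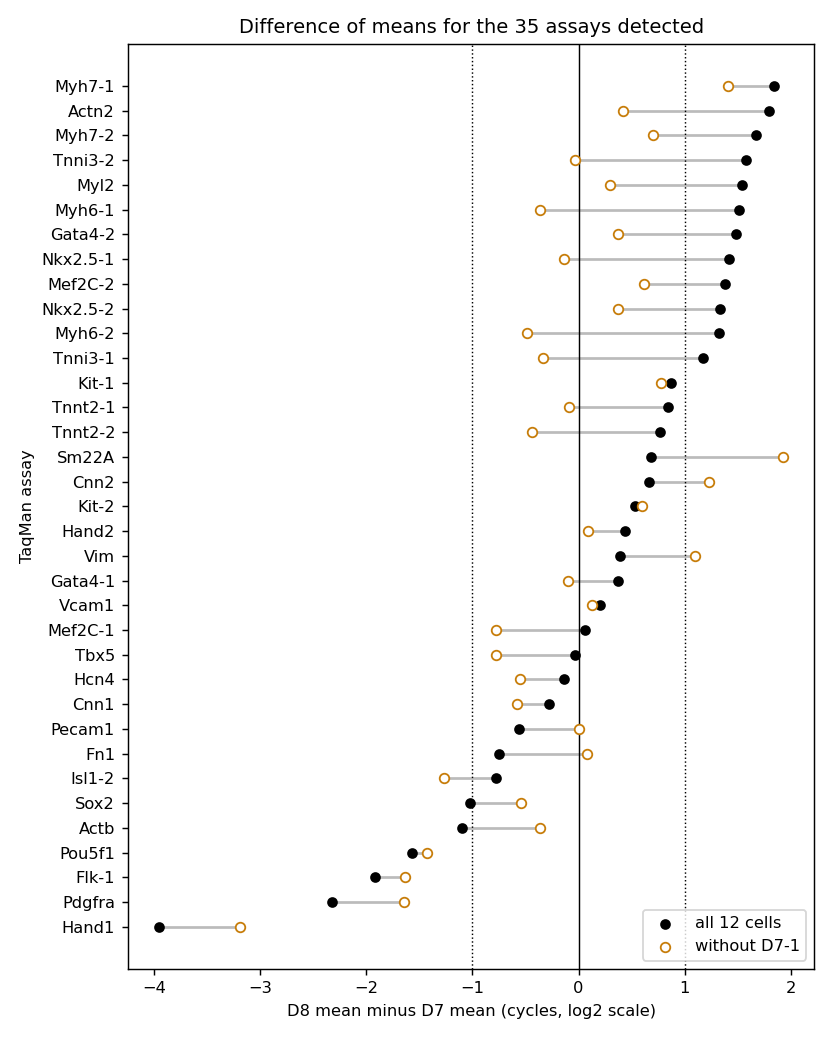
D8 mean minus D7 mean in cycles for the 35 assays detected in at least 1 of the 12 cells, over all cells (filled) and without D7-1 (open), with dotted lines at 1 cycle on either side of 0. Most sarcomere assays and cardiac factors move to within 1 cycle when D7-1 is left out, and Hand1, Pdgfra, Flk-1 and Pou5f1 stay below -1.

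Hand1, a basic helix-loop-helix factor of early mesoderm and later of the left ventricle, showed the largest difference of any assay. It read 5.11, 5.95, 10.45, 0, 0 and 0 in D8 cells 1 to 6, against 11.33, 10.02, 8.59, 8.84, 0 and 6.43 in D7 cells 1 to 6. It was undetected in 3 D8 cells and 1 D7 cell, D8-1 and D8-2 were below every detecting D7 cell, and D8-3 was above every D7 cell but D7-1. Means were 3.58 ± 4.33 in D8 and 7.54 ± 4.04 in D7 cells (SD, n = 6 each), a difference of -3.95 that ran from -5.46 to -3.19 as single cells were left out. Over detecting cells alone the difference was -1.88.

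Hand1 was detected together with Nkx2.5-1 in 3 D8 cells and 4 D7 cells, all with 8 or more cardiomyocyte assays. The number of detected assays and Actb moved with it on D8. The 3 cells with Hand1 detected 31, 31 and 28 assays and had Actb at 8.65, 6.90 and 9.16, and the 3 without it detected 20, 21 and 23 and had Actb at 4.80, 6.66 and 6.38. Their part in the Hand1 difference was not tested. D7-5, the D7 cell without Hand1, detected 28 assays and had Actb at 6.63. Hand2, the relative of Hand1, was detected in all 12 cells at 6.33 ± 0.86 in D8 and 5.89 ± 1.31 in D7 cells (SD, n = 6 each).

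Both receptors of early cardiac mesoderm were lower on D8. Flk-1, the VEGF receptor Kdr, was detected in 0 of 6 D8 cells (exact 95% interval reaching 45.9%), against 3 of 6 D7 cells, where D7-1 had 3.33, D7-4 3.65 and D7-6 4.50 cycles. Of these D7 cells, D7-4 and D7-6 carried all 10 cardiomyocyte assays. The difference of means was -1.91, or -1.63 without D7-1, against pooled SDs of 1.51 and 1.50 between cells. These pooled SDs include a D8 SD of 0 from undetected cells. The SD of the D7 cells alone was larger than the difference, at 2.13, or 2.25 without D7-1. Without D7-1, 2 of 5 D7 cells detected Flk-1, so the medians of both days were 0 and their difference was 0.

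Pdgfra, the PDGF receptor alpha, read 8.17, 5.11, 0, 0, 0 and 4.57 in D8 cells 1 to 6, against 8.67, 0, 4.49, 4.42, 6.57 and 7.61 in D7 cells 1 to 6. The days overlapped, and 3 D8 cells and 1 D7 cell had none. Means were 2.97 ± 3.48 in D8 and 5.29 ± 3.09 in D7 cells (SD, n = 6 each), and the difference of -2.32 was -1.64 without D7-1. Detecting cells averaged 5.95 on D8 and 6.35 on D7, within 1 cycle. Taking Flk-1, Pdgfra and Hand1 together, 2 D8 cells (D8-4 and D8-5) and 0 D7 cells detected none of the 3.

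Pou5f1, the pluripotency factor Oct4, read 3.58, 2.53, 0, 0, 2.63 and 0 in D8 cells 1 to 6, against 3.72, 2.40, 0, 3.38, 3.81 and 4.83 in D7 cells 1 to 6. All values were low, within 5 cycles of the detection limit, and the days overlapped. Means were 1.46 ± 1.64 in D8 and 3.02 ± 1.67 in D7 cells (SD, n = 6 each), a difference of -1.57. Sox2, another pluripotency factor that is also active in neural cells, read 3.89, 0, 5.04, 0, 0 and 0 in D8 cells 1 to 6, against 4.90, 0, 0, 4.56, 5.61 and 0 in D7 cells 1 to 6. Its difference of -1.02 was within 1 cycle when any of 7 cells was left out.

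**Figure D5:**
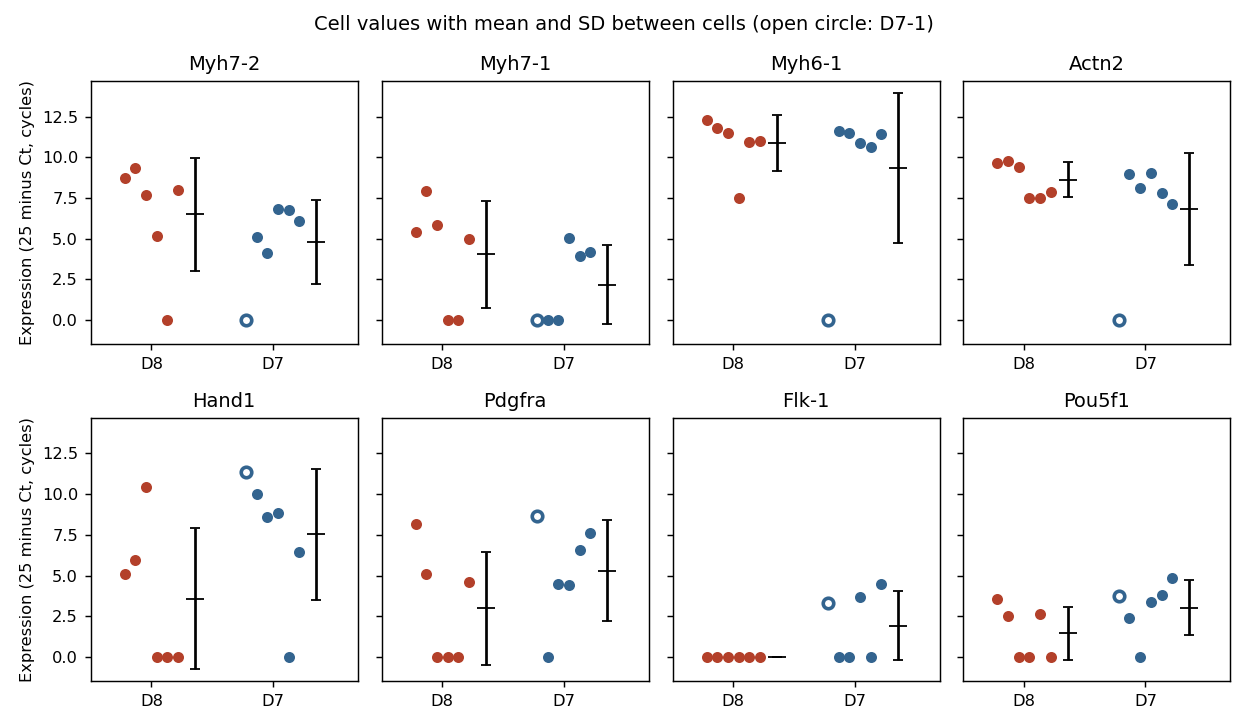
Expression in each cell (points, cycles above the detection limit) with the mean and SD between cells (bars, n = 6 per day) for 8 assays, D8 left and D7 right, and D7-1 as an open circle. Myh7-2 is above all D7 cells in 4 D8 cells, Myh6-1 and Actn2 overlap between the days with and without D7-1, and Flk-1 is at 0 in every D8 cell.

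The higher calls of the cardiac transcription factors were lost without D7-1, as were those of most sarcomere assays. Nkx2.5-1, a homeobox factor of heart muscle, read 10.32, 10.15, 9.58, 7.62, 9.63 and 7.88 in D8 cells 1 to 6, against 0, 9.11, 9.66, 9.74, 9.05 and 9.12 in D7 cells 1 to 6. Nkx2.5-2 read 7.91, 7.07, 6.10, 4.23, 6.31 and 5.05 in D8 cells, against 0, 4.93, 4.62, 6.55, 6.09 and 6.49 in D7 cells. The D8 cells spread to both sides of D7-2 to D7-6, and the differences of 1.42 and 1.33 became -0.14 and 0.37 without D7-1.

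Gata4-2, an assay of the zinc finger factor Gata4, read 8.12, 7.88, 8.18, 5.48, 6.84 and 5.78 in D8 cells 1 to 6, against 0, 7.56, 6.03, 7.18, 6.68 and 5.94 in D7 cells 1 to 6. The difference of 1.48 was 0.37 without D7-1. Gata4-1, the less sensitive assay, was detected in 3 cells of each day, all of which also detected Hand1. Mef2C-2 read 6.10, 6.22, 6.09, 3.29, 3.19 and 6.24 in D8 cells, against 0, 4.35, 0, 7.60, 4.89 and 5.99 in D7 cells. Mef2c is a MADS-box factor of muscle, and its assays disagreed: the difference was 1.38 for Mef2C-2 and 0.06 for Mef2C-1, which detected D7-3 at 3.93.

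The progenitor factor Isl1, by its assay Isl1-2, read 5.44, 4.46, 0, 0, 0 and 0 in D8 cells 1 to 6, against 0, 4.04, 3.87, 2.92, 3.75 and 0 in D7 cells 1 to 6. It was detected in fewer cells on D8 (2 against 4), at higher values where detected, and its means of 1.65 ± 2.57 in D8 and 2.43 ± 1.92 in D7 cells (SD, n = 6 each) differed by -0.78. The difference ran from -1.54 to -0.45 as single cells were left out, past 1 cycle without D8-1, D8-2, D7-1 (-1.27) or D7-6, and was -3.33 between the medians. Isl1-1 detected none of the 12 cells. The T-box factor Tbx5 was within 1 cycle, at 5.15 ± 2.60 in D8 and 5.18 ± 2.05 in D7 cells (SD, n = 6 each), and reached 1.0 when D8-4 was left out. Of the assays of the receptor Kit, Kit-1 differed by 0.87, running from 0.26 to 1.36 and past 1 cycle under 5 of 12 omissions (D8-3, D8-4, D8-5, D8-6 or D7-5). Kit-2 differed by 0.53, running from -0.037 to 0.90.

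Of the 16 assays on the list of progenitor and transcription factors, 4 were at least 1 cycle higher on D8 (both Nkx2.5 assays, Gata4-2 and Mef2C-2) and 3 lower (Hand1, Flk-1 and Pdgfra), near the 28.6% higher and 14.3% lower over all 42 assays. The median was 0.22, against 0.29 over all assays. Without D7-1, 0 were higher and 4 lower, Isl1-2 being the addition, against 9.52% and 11.9% over all assays. Mesp1, a factor of nascent mesoderm, was detected in none of the 12 cells.

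Sm22A, Cnn2 and Vim passed 1 cycle, higher on D8, when D7-1 was left out. Vim, the intermediate filament protein of mesenchymal cells, read 8.45, 7.11, 7.70, 5.28, 8.0 and 7.88 in D8 cells 1 to 6, against 10.55, 4.32, 6.69, 7.58, 5.80 and 7.14 in D7 cells 1 to 6. It averaged 7.40 ± 1.13 in D8 and 7.01 ± 2.08 in D7 cells (SD, n = 6 each), and 6.31 ± 1.29 in D7 cells without D7-1 (SD, n = 5), which put D8 higher by 1.10 cycles. Sm22A read 4.78, 6.61, 7.37, 0, 0.30 and 5.32 in D8 cells 1 to 6, against 9.59, 0, 0, 0.20, 4.43 and 6.04 in D7 cells 1 to 6, with differences of 0.69 over all cells and 1.93 without D7-1. Cnn2 read 8.08, 6.88, 8.04, 6.33, 5.80 and 6.68 in D8 cells, against 9.13, 5.46, 1.96, 8.01, 6.11 and 7.17 in D7 cells, and differed by 0.66 and 1.23. All 3 assays overlapped between the days. As single cells were left out, Sm22A ran from 0.0094 to 1.93, Cnn2 from -0.21 to 1.23 and Vim from -0.15 to 1.10. Sm22A also passed 1 cycle without D8-4, D8-5 or D7-6, and Cnn2 without D7-4. Fn1 differed by -0.75, running from -1.78 to 0.14 as single cells were left out, and past 1 cycle without D8-1, D8-3 or D7-5. The smooth muscle calponin Cnn1 differed by -0.28, running from -1.59 (without D7-3) to 0.98 (without D8-6). The smooth muscle myosin Myh11 was detected in none of the 12 cells.

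Of the other lists, ventricular assays counted 3 higher and 1 lower of 4, pluripotency assays 0 and 2 of 2, fibroblast assays 0 and 1 of 3, endothelial assays 0 and 1 of 4, and smooth muscle and atrial assays 0 in both directions, against 28.6% higher and 14.3% lower over all 42 assays. Without D7-1 the counts were 1 and 1 for ventricular, 0 and 1 for pluripotency, 1 and 1 for fibroblast, 0 and 1 for endothelial and 1 and 0 for smooth muscle assays, against 9.52% and 11.9% over all assays. With 2 to 4 assays each, these lists hold too few members to be read against those shares. The endothelial list summed to 0 in every D8 cell and to between 0 and 6.67 cycles in D7 cells. Cdh5 and Vwf, which define endothelium, were at 0 in all 12 cells, and Pecam1 was detected in D7-1 alone. Hcn4, the pacemaker channel of the conduction system, was detected in 3 D8 and 4 D7 cells, with means of 1.96 ± 2.27 in D8 and 2.10 ± 1.67 in D7 cells (SD, n = 6 each). The adhesion molecule Vcam1 was detected in 1 cell of each day, and Tbx1 in none.

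Actb read 8.65, 6.90, 9.16, 4.80, 6.66 and 6.38 in D8 cells 1 to 6, against 11.89, 7.93, 7.30, 8.15, 6.63 and 7.24 in D7 cells 1 to 6. Means were 7.09 ± 1.59 in D8 and 8.19 ± 1.89 in D7 cells (SD, n = 6 each), a difference of -1.10 that was -0.36 without D7-1. Its part in the other differences was not tested. Centring each cell on Actb moved the median difference over all 42 assays to 0.69, and centring on the median detected assay moved it to 0. Myh7-1, Hand1, Pdgfra, Flk-1 and Pou5f1 stayed past 1 cycle in the same direction after centring each cell on Actb or on its median detected assay, with and without D7-1. Undetected values were not centred: all took the same lowest centred value, so centring says little about assays that many D8 cells lack. Over detecting cells alone, Myh7-1 differed by 1.67 and Hand1 by -1.88, but Pdgfra by -0.40 and Pou5f1 by -0.71. Flk-1, undetected in every D8 cell, had no such value.

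Across the 12 cells, the assays most like Myh7-2 were Myh7-1 (r = 0.83), Myl2 (0.80) and Mef2C-2 (0.77), of 32 assays detected in at least 3 cells. Without D7-1 these were 0.83, 0.72 and 0.65 over 11 cells. The least like were Actb (-0.29), Vim (-0.28) and Flk-1 (-0.22), which became 0.29, 0.16 and 0.05 without D7-1. For Hand1 the most like were Fn1 (0.78), Actb (0.77) and Kit-2 (0.55), at 0.73, 0.77 and 0.60 without D7-1, and the least like were Tnni3-2 (-0.29), Nkx2.5-2 (-0.28) and Nkx2.5-1 (-0.25), at 0.33, 0.12 and 0.53 without D7-1. All assays of a cell share its amount of RNA, so these values are descriptions.

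Over the days in the cell names, the mean of Hand1 was 10.88 ± 2.23 on D5, 7.70 ± 4.56 on D6, 7.54 ± 4.04 on D7 and 3.58 ± 4.33 on D8 (SD, n = 6 each). In cells named D23 and D29 it was at 4.93 ± 2.48 on D23 and 3.62 ± 3.23 on D29 (SD, n = 10 each), and both means were within 1 SD of the D8 mean. Myh7-2 averaged 0, 1.98 ± 3.29, 4.83 ± 2.58 and 6.50 ± 3.49 on D5 to D8 (n = 6 each), and 6.23 ± 4.35 and 4.51 ± 4.23 on D23 and D29 (n = 10 each). Actn2 averaged 8.63 ± 1.09 on D8 (n = 6) and 8.92 ± 0.72 in the CM reference cells (n = 5), and Flk-1 was at 0 in all D8, D23, D29 and CM cells. Pdgfra averaged 7.02 ± 3.49 on D5, 8.09 ± 0.72 on D6, 5.29 ± 3.09 on D7 and 2.97 ± 3.48 on D8 (n = 6 each). Pou5f1 did not stay low after D8: it averaged 6.75 ± 1.27, 4.97 ± 2.60, 3.02 ± 1.67 and 1.46 ± 1.64 on D5 to D8 (n = 6 each), but 5.67 ± 0.48 on D23 and 5.38 ± 0.43 on D29 (n = 10 each), and 5.33 ± 0.22 in the CM reference cells (n = 5). These other sets come in part from separate tables with no common normalization. The sample titles of the cells named D23 and D29 read ES derived cell at early stages, so their place after D8 rests on the cell names alone.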

How the data were processed

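Per the labels' protocols, single cells were sorted into wells, lysed and reverse transcribed in 1 step, pre-amplified by TaqMan assay and read on a microfluidic chip. The authors deposited quantification cycles (Ct) per assay and cell, of at most 25. A Ct of 25 was read as not detected from the values (the negative control is at 25 on every assay), since no label states it, and every zero and detection count rests on this reading. The sources used here give neither the threshold nor a quality filter. The values carry no normalization and no read depth.

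Control columns were dropped and Ct was turned into 25 minus Ct. Calls are differences of mean expression of at least 1 cycle, with undetected cells at 0. Detection shares carry exact Clopper-Pearson 95% intervals. Every cell's value was printed for assays past 1 cycle with or without D7-1, for assays whose number of detecting cells differed by 2 or more, and for Myh7-2, Actn2 and Hand1. The cells, gene lists and tests were chosen with earlier results of these data known. Of the assay names, 38 matched a RefSeq symbol and 4 a synonym (Flk-1, Sm22A and both Nkx2.5 assays). The difference calculation was tested on simulated data. The simulated cells had a smaller spread than many assays here, larger shifts than 1 cycle and no added undetected values. That test therefore covers the calculation and not the 1-cycle calls. Alternatives were centring, a limit of Ct 23, detecting cells only, medians, averaged assay pairs, a cell filter and leaving out each cell. Python 3.11.15, pandas 2.3.3, numpy 2.4.6, scipy 1.17.1 and matplotlib 3.10.9 were used.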

Additional observations from a re-analysis of the deposited data

Results flagged for a closer look

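Of 70 groups of 6 cells (an assay on a day), 19 held a cell whose gap to the nearest other cell was large for the group's range by Dixon's criterion. Its rate of about 1 in 20 groups by chance is for normally distributed, independent values. These values stop at 0 and the assays of a cell are linked, so the count is not read against that rate. Where every other cell was at 0, a single detection was flagged whatever its value. D7 held 15 of them and D8 held 4. D7-1 accounted for 13, with 11 low and 2 high. Its low values were 0 for Mef2C-1, Gata4-2, Nkx2.5-2, Nkx2.5-1, Actn2, Myh6-2, Myh6-1, Tnni3-1 and Tnni3-2, 3.83 cycles for Tnnt2-2 and 5.65 for Tnnt2-1. Its high values were 11.9 for Actb and 3.34 for Pecam1. D8-4 was low for Myh6-2 at 6.81, for Myh6-1 at 7.53 and for Tbx5 at 0. The remaining flags were single detections, of Vcam1 in D8-3 at 3.47 and in D7-3 at 2.24, and of Kit-1 in D7-5 at 2.93.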

How the results depend on the processing

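The count of assays at least 1 cycle higher in D8 cells (12) was 19 centred on Actb and 8 at a limit of Ct 23. It was 3 over detecting cells only, 5 by medians and 6 with numbered assays averaged. As single cells were left out it ran from 4 (without D7-1) to 17 (without D8-4). Lower assays (6) numbered 3 at a limit of Ct 23 and 2 over detecting cells. Cardiomyocyte assays higher (8) numbered 6 at Ct 23, 2 over detecting cells, 2 by medians and 5 averaged, and 1 to 10 with single cells left out. Progenitor and transcription factor assays higher (4) numbered 2 at Ct 23, 1 over detecting cells, 2 by medians and 1 averaged, and 0 to 6 with single cells left out; those lower (3) numbered 1 over detecting cells. Over detecting cells the sign turned for Mef2C-2 (-0.52), Nkx2.5-1 (-0.14), Myl2 (-0.017), Myh6-2 (-0.48), Myh6-1 (-0.36), Tnni3-1 (-0.34) and Tnni3-2 (-0.037), and by medians for Tnni3-1 (-0.067). Leaving out single cells gave -0.14 to 1.81 for Nkx2.5-1, -0.48 to 2.04 for Myh6-2, -0.36 to 2.17 for Myh6-1, -0.34 to 1.60 for Tnni3-1 and -0.037 to 2.06 for Tnni3-2.

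Alternatives without D7-1 were added after seeing the data. Centred on Actb, higher assays numbered 5, with 1 cardiomyocyte and 1 progenitor or transcription factor assay, and Myh6-2 was -0.12 and Myh6-1 -0.0044. Centred on the median detected assay they numbered 2, with 1 and 0, while 6 progenitor or transcription factor assays were lower. There Nkx2.5-1 was -0.47, Myh6-2 -0.81, Myh6-1 -0.69, Tnni3-1 -0.67 and Tnni3-2 -0.37. With D8-4 also left out they numbered 6, with 1 and 2, and Actb was 0.10. By medians they numbered 5, with 2 and 1, the Flk-1 difference was 0, and Myh6-2 was -0.28, Myh6-1 -0.19, Tnni3-1 -0.72 and Tnni3-2 -0.42. The cause of these shifts was not tested. The cell filter left out 0 cells.

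With 6 cells a day, 0 detecting cells allow a share of up to 45.9%. No paired analysis was possible because the cell numbers only name cells and no result comes from a test.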
